A study of Mus musculus with 4 samples.

Results

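Liver mitochondrial RNA of NASH mice was set against that of ob mice, so that steatohepatitis stood beside the fatty liver of leptin loss. Total RNA was extracted from liver mitochondria of mice at postnatal week 7 and sequenced after depletion of ribosomal RNA, and the series asked how RNAs of this fraction, non-coding ones in particular, differ between models of metabolic disease. It holds 4 libraries, of which the NASH and ob libraries, 1 each, are described here. The wild-type and db libraries entered the scaling and are given beside the pair where they help to place a value. The NASH library came from C57BL/6J mice labelled wild type-NASH, and the sources used here do not say which diet or treatment brought about the disease. The ob library came from B6.Cg-Lepob/J mice, which carry a mutation of the leptin gene. The wild-type library came from wild-type C57BL/6J mice, and the db library from BKS.Cg-Dock7m+/+Leprdb/J mice, whose leptin receptor is mutated and whose strain label nevertheless reads C57BL/6J. How many mice each library pooled, and how the mitochondria were purified, is likewise not given. Features entered the comparison when they had 10 or more counts in either of the 2 libraries, which 4919 of the 37819 features in the table did.

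In steatohepatitis, fat in the liver is joined by injury to hepatocytes and by inflammation. Macrophages recruited from the blood gather around dying, fat-filled hepatocytes, take up lipid and switch on lysosomal and phagocytic genes, while stellate cells lay down collagen. Leptin is the hormone by which adipose tissue restrains feeding. Without it mice overeat and have high insulin, and the transcription factors SREBP1c and ChREBP drive the enzymes of fatty acid synthesis in their hepatocytes, which gives a fatty liver with little inflammation. A mitochondrial preparation carries RNA transcribed from mtDNA and also RNA of the cytosol, the endoplasmic reticulum and, where nuclei break, the nucleus, so nuclear-encoded messages are read in it beside mitochondrial ones.

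The library totals were 529815 counts in NASH, 1000306 in ob, 627890 in wild-type and 1005915 in db. Outside 9 nuclear features whose sequence resembles mtDNA genes, 129834 counts were left in NASH against 713285 in ob, so the NASH library was the shallower by far for every nuclear gene. The number of features with 10 or more counts was 1238 for NASH and 4744 for ob. Levels are CPM, the counts of a feature relative to a library scaled by TMM, a factor computed so that most features change little, and 3 counts, taken as the floor, were worth 6.15 CPM in NASH and 1.99 CPM in ob. A feature was called higher or lower in NASH when log2(CPM + 1) differed by 2-fold or more. With 1 library a group no difference has a replicate check and no test was possible, so each fold is given with its exact 95% interval, in parentheses, which covers counting error only and compares these 2 libraries. The leptin gene Lep had 0 counts in each of the 4 libraries and therefore does not check the ob label. Nnt, the mitochondrial transhydrogenase gene of which C57BL/6J mice carry a partial deletion, had 0 counts in NASH, 32 in ob, 1 in wild-type and 47 in db, and the table gives no exon counts that would check the deletion itself.

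Of the 4919 features, 660 (13.4%) were called higher in NASH than in ob, 2321 (47.2%) were called lower and 1938 (39.4%) neither. The interval also excluded equality for 570 of the higher and 1354 of the lower features. Macrophage genes, cytosolic ribosomal protein genes and features resembling mtDNA genes were on the higher side. Genes of the differentiated hepatocyte, of fatty acid synthesis, of red cells and of the nucleus were on the lower side. Calls that were higher made up 22.1% of all calls, against 10.7% under plain library totals and 52.5% when libraries were scaled to their protein-coding totals. The median log2 fold change over all features was -0.83, and every group below is read against it. Each count of calls below is likewise read against the 13.4% higher and 47.2% lower of all features. Of the features tested, 3681 had passed the filter through ob alone, 175 through NASH alone and 1063 in both. In NASH 547 were at 0, against 7 at 0 in ob, and the part of depth in the lower calls was not tested. Among the 1063 features with 10 or more counts in both libraries, 424 (39.9%) were higher and 235 (22.1%) lower, and the median was 0.71. With the ob counts thinned by the ratio of the TMM-scaled libraries, 602 were higher and 1068 lower of 2185 features left. This thinning did not equalise depth, since ob still kept more counts than NASH outside the features resembling mtDNA genes.

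**Figure D1:**
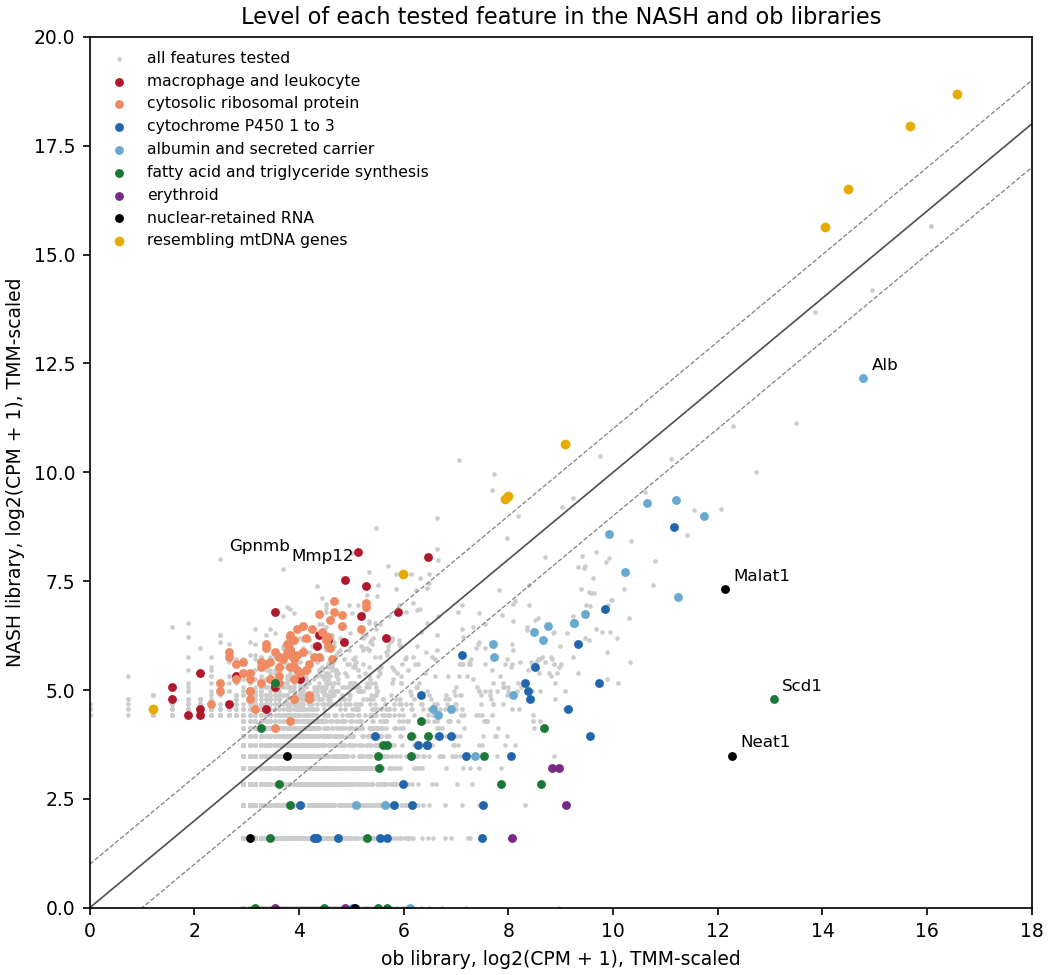
Level of each of the 4919 tested features in the NASH library (vertical axis) and the ob library (horizontal axis), both as log2(CPM + 1), with the line of equality solid and the 2-fold lines dashed. Most macrophage and ribosomal protein features and all 9 that resemble mtDNA genes lie above the lines, while Scd1, Neat1, Malat1 and the cytochrome P450 genes lie below them, and the rows of points at the bottom are features with 0, 1 or 2 counts in NASH.

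Genes of lipid-laden macrophages led the features that were higher in NASH. Gpnmb, a transmembrane glycoprotein of lysosome-rich macrophages, had 125 counts in NASH and 7 in ob, with 0 in both wild-type and db. It was 55.1-fold higher in NASH than in ob (26.0 to 139.9), the largest increase among features with 50 or more counts. Mmp12, the macrophage metalloelastase, had 106 counts in NASH, 18 in ob, 0 in wild-type and 2 in db, and was 18.2-fold higher (11 to 31.8). Both genes had most of their counts in the NASH library, with the ob library second. Of 21 listed genes past the filter, 8 of them through NASH alone, 13 were higher and 2 lower. Their median was 1.88, or 2.71 above that of all features. Lgals3, which encodes a galactose-binding lectin, had 45 counts against 4 and was 34.7-fold higher (12.7 to 133). Cd68, a lysosomal glycoprotein of macrophages, had 20 counts against 5 and was 12.3-fold higher (4.50 to 42.1). Lpl, the lipoprotein lipase that frees fatty acids for uptake, had 81 counts against 29 and was 8.62-fold higher (5.58 to 13.7). The list did not move as a block. Trem2, the lipid-sensing receptor, had 10 counts against 2, while the cathepsin genes Ctsb and Ctsd, also used by hepatocytes, were only 1.77-fold (1.51 to 2.07) and 1.43-fold (1.19 to 1.72) higher. The 2 lower members were Apoe and Ctsl, both abundant in hepatocytes, and Apoe alone made up 50.4% of the list's counts in NASH and 91.0% in ob, so the list's summed level ran against its median, at 4469 CPM in NASH and 12651 CPM in ob. In bulk RNA such as this, more cells of a type and more RNA per cell cannot be told apart.

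The promoters of the 2 leading genes are shown because Gpnmb and Mmp12 carry the contrast. The 250 bases before the start site, from RefSeq on GRCm38.p6, are given 5′ to 3′ for Gpnmb on the plus strand of chr6:49036268-49036517 and for Mmp12 on the plus strand of chr9:7344147-7344396. They were searched on both strands for 8 motifs, namely the TATA box TATAAA, the CCAAT box, the M-box TCATGTG, the CLEAR-type E-box TCACGTG, the PU.1 core GAGGAAGT, the AP-1 site TGANTCA, the sterol response element TCACNCCAC and the GC box GGGCGG. Capitals mark a match.
Gpnmb: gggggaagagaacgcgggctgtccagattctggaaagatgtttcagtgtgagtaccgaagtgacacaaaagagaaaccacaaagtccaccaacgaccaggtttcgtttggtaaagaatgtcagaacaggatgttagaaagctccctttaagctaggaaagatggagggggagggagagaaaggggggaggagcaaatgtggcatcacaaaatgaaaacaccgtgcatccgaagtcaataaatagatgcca
Mmp12: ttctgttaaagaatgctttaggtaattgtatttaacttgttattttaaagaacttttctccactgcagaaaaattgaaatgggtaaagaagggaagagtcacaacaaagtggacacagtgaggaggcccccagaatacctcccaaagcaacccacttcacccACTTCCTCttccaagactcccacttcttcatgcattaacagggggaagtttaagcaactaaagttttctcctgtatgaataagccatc
None of these letters stands in the Gpnmb window. The Mmp12 window holds the PU.1 core, on the minus strand and starting 88 bases before the start site, and 2.44% of 32851 promoters of this length hold it. A second start site listed for Mmp12 has an M-box and an AP-1 site instead. By gene, the PU.1 core was found before at least 1 start site of 18 of 500 protein-coding genes called higher (3.6%), 38 of 1754 called lower (2.17%) and 94 of 3815 tested (2.46%). Spi1, which encodes PU.1, had 16 counts in NASH and 3 in ob. A match is a stretch of letters and not a measured binding site.

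General macrophage and leukocyte genes were higher almost throughout. Of 24 past the filter 22 were called higher and 0 lower, and their median was 2.05. Of the 24, 8 had passed through NASH alone, and for these 8 the higher call follows from the filter. Summed over all 31 listed genes, the level was 2019 CPM in NASH and 520 CPM in ob, with 561 CPM in wild-type and 577 CPM in db, a 3.88-fold difference between NASH and ob (3.53 to 4.27). The ob, wild-type and db libraries therefore lay close together and the NASH library stood alone. Lyz2, the lysozyme of macrophages, had 141 counts in NASH, 51 in ob, 22 in wild-type and 48 in db. Clec7a, a receptor for fungal glucans, had 54, 16, 5 and 5 counts in the same order, and Ctss, the protease that trims antigens, had 90, 43, 12 and 36. Their folds over ob were 8.53 (6.15 to 12), 10.4 (5.87 to 19.5) and 6.46 (4.44 to 9.52). Mrc1, a mannose receptor, and Csf1r, the receptor of the macrophage growth factor, were the 2 members not called, at 1.44-fold (0.936 to 2.18) and 1.89-fold (1.32 to 2.69).

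Kupffer cells, the resident macrophages of the liver, were divided in their markers. Hmox1, which degrades heme, was 43.2-fold higher (13.8 to 218) with 42 counts in NASH against 3 in ob. Cd5l, a secreted factor of resident macrophages, was 2.28-fold higher (1.74 to 2.98) and Marco, a scavenger receptor, 6.61-fold higher (2.54 to 19.2). Clec4f, a lectin restricted to Kupffer cells, had 45 counts in NASH and 130 in ob and was level at 1.07-fold (0.744 to 1.51). Cd163, the scavenger receptor for hemoglobin, had 1 count against 20 and was 6.48-fold lower (1.04 to 268.5). In all, 5 of 9 were higher and 1 lower, with Timd4, another resident marker, at 0 and 1 counts. Of the 9, 2 had passed through NASH alone and 2 through ob alone. Neutrophils and lymphocytes left almost no counts in either library. Summed over 13 neutrophil genes there were 15 counts in NASH and 23 in ob, a level 2.01-fold higher in NASH (0.977 to 4.03). Over 20 lymphocyte genes there were 16 and 12 counts, or 32.8 CPM against 7.97 CPM, 4.12-fold higher in NASH (1.83 to 9.53). The 21 chemokine and inflammatory genes summed to 78 counts against 46, 5.23-fold higher (3.59 to 7.71). Of the chemokine and inflammatory genes only Ccl6 passed the filter, with 30 counts against 5 (18.5-fold higher, 7.12 to 61.1), while Tnf, Il6, Ccl2 and Cxcl10 had 0 counts in both.

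Antigen presentation was split by class. The MHC class II genes, which professional antigen-presenting cells use, were higher in NASH. H2-Aa had 60 counts in NASH and 45 in ob and was 4.12-fold higher (2.75 to 6.20), H2-Eb1 was 3.48-fold higher (2.31 to 5.27), and Cd74, the class II invariant chain, was 2.53-fold higher (1.98 to 3.23). The class I genes, which hepatocytes also express, were lower or level. H2-K1 had 93 counts against 1178 and was 4.10-fold lower (3.32 to 5.12), and H2-Q10, a class I protein secreted by the liver, had 28 against 1411 and was 16.3-fold lower (11.2 to 24.7). B2m, the class I light chain, was 2.12-fold lower (1.63 to 2.80). Near-identical H2 genes can share reads, so the single values are uncertain. With 4 members higher and 4 lower of 11, the median of -0.97 says little, and its sign turned positive (0.12) when libraries were scaled to their protein-coding totals.

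Several genes that act on actin were among the 15 largest increases. No list of such genes was drawn up, so these are single genes and not a count over a group. Actb, cytoplasmic actin, had 604 counts in NASH and 200 in ob and was 9.32-fold higher (7.93 to 11). Tmsb4x, a thymosin that binds actin monomers, had 205 against 65 and was 9.74-fold higher (7.33 to 13.1). Cfl1, which severs filaments, was 9.42-fold higher (5.53 to 16.8), and Actr3, part of the complex that branches them, 8.57-fold higher (4.92 to 15.6). Msn, which ties actin to the membrane, was 6.67-fold higher (4.30 to 10.6). Of the 7 features with 0 counts in ob, all with 10 to 12 counts in NASH, Tagln2 and Evl bind or organise actin, Rac2 is a GTPase of blood cells and Adam8 a membrane protease. The others were Pip4k2a, Trim30a and Stx7. Against the floor of 3 counts in the ob library each was at least 10.3-fold higher.

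Scar-forming genes were divided, and the sign of their median depended on the scaling. Col1a1, a chain of the main fibrillar collagen, had 78 counts in NASH, 85 in ob, 7 in wild-type and 44 in db, and was 2.83-fold higher in NASH than in ob (2.06 to 3.90). Col3a1 was close to it at 2.94-fold (2.21 to 3.91). Vim, the intermediate filament of mesenchymal and blood cells, was 8.44-fold higher (4.57 to 16.4). Of 21 past the filter 6 were higher, 3 lower and 12 neither, and the median was 0.56, which became -0.08 under plain library totals. The summed level, 1298 CPM in NASH and 1520 CPM in ob, was 1.17-fold lower in NASH (1.07 to 1.28) and so ran against that median, with fibronectin holding most counts in ob. The lower members were Fn1, fibronectin, which hepatocytes secrete (39 counts against 1331, 11.1-fold, 8.04 to 15.6), Lrat, which stores retinol in quiescent stellate cells (2 against 29), and Rgs5, a pericyte gene (3 against 35). Acta2, the actin of activated stellate cells, had 0 counts in NASH and 2 in ob, and Timp1 had 0 and 1. Endothelial genes stayed near the median of all features. Of 16 past the filter 0 were higher and 4 lower, and 13 had passed through ob alone. Their median of -0.79 became 0.19 when scaled to protein-coding totals. The bile duct markers Krt19, Krt7 and Epcam had 0 counts in both libraries, and of 12 listed pancreas genes none passed the filter.

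**Figure D2:**
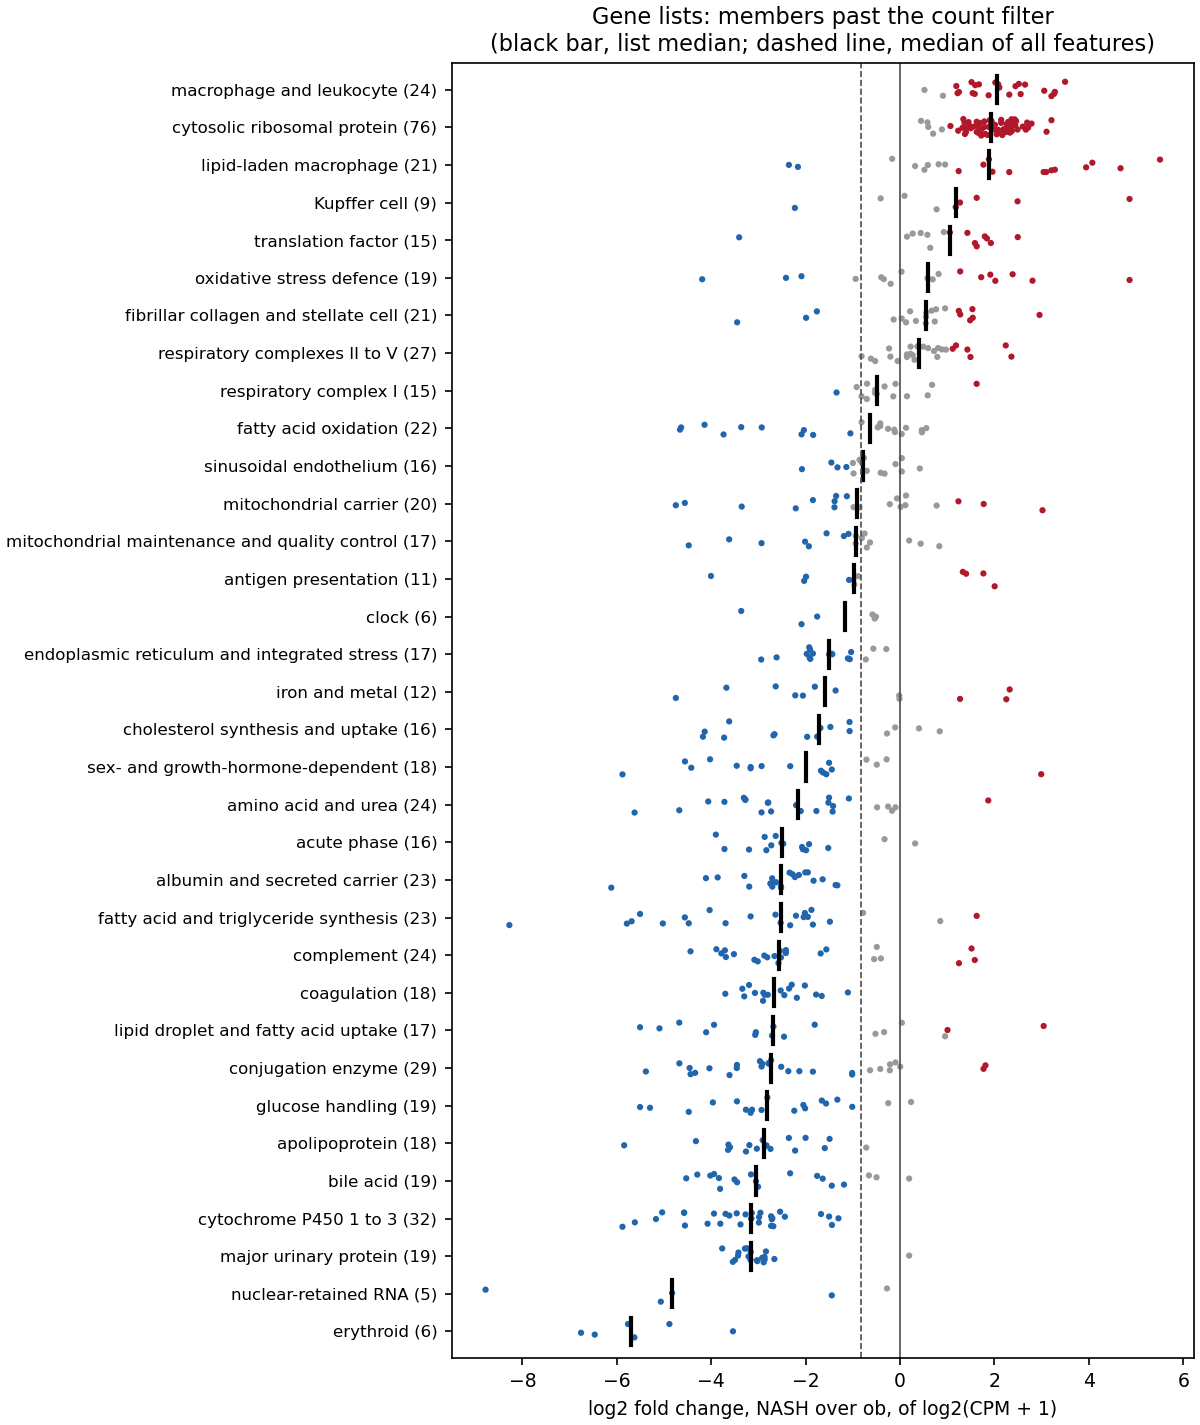
Log2 fold change of NASH over ob for the members of each gene list past the count filter (number in parentheses), with red points for members called higher, blue for members called lower, a black bar for the list median and a dashed line at the median of all features, -0.83. The lipid-laden macrophage, macrophage and leukocyte, and cytosolic ribosomal protein lists lie to the right at medians near 2, and the Kupffer cell list at 1.18. Most hepatocyte lists lie to the left of the dashed line, while fatty acid oxidation, at -0.64, lies to its right.

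Genes that hepatocytes use to make plasma proteins were lower in NASH nearly without exception. All 23 albumin and carrier genes past the filter were called lower, against 47.2% of all features, and 4 of them had passed through ob alone. Their median was -2.52, or -2.34 over those with 10 or more counts in both libraries. Alb had 2225 counts in NASH, 42417 in ob, 16453 in wild-type and 102012 in db, and was 6.18-fold lower in NASH than in ob (5.92 to 6.45). Ttr, the thyroid hormone and retinol carrier, was 17.4-fold lower (13.7 to 22.5), while Ahsg, fetuin, was 2.51-fold lower (2.16 to 2.94). The members thus differed in size while sharing a direction. The summed level of the carriers was 7850 CPM in NASH, against 44562 CPM in ob, 56244 CPM in wild-type and 137997 CPM in db, so NASH was the lowest of the 4 libraries. Of 18 apolipoprotein and lipoprotein genes, 7 of which had passed through ob alone, 17 were lower, with a median of -2.89. Apob, the scaffold of very-low-density lipoprotein, was 7.53-fold lower (6.67 to 8.52), Mttp, which loads lipid onto it, 12.9-fold lower (7.15 to 26.1), and Apoc2, the activator of lipoprotein lipase, had 0 counts against 85. The exception, Pltp, was 1.65-fold lower (1.10 to 2.55).

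All 18 coagulation genes were lower, 7 of them having passed through ob alone, with a median of -2.66. Fga, a fibrinogen chain, had 83 counts against 2608 and was 10.2-fold lower (8.18 to 12.8), and Serpinc1, antithrombin, was 7.52-fold lower (5.87 to 9.80). Complement genes were split. The 3 chains of C1q, which macrophages make, were higher, with C1qb at 50 counts against 53. Of the other 21 members past the filter 18 were lower, among them C3, the central component (272 counts against 4495, 5.35-fold, 4.74 to 6.07), and C4b (35 against 1623, 15-fold, 10.8 to 21.6). Acute phase genes, which inflammation raises in hepatocytes, were not higher in NASH. Of 16 past the filter, 8 of them through ob alone, 14 were lower and 0 higher. Hp, haptoglobin, had 166 counts in NASH, 1953 in ob, 448 in wild-type and 8196 in db and was 3.81-fold lower (3.25 to 4.49). Saa1, the classic acute phase amyloid protein, had 1 count in NASH, 32 in ob, 6 in wild-type and 960 in db. Lcn2, which neutrophils also make, had 7 counts against 17 and was not called.

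Major urinary proteins, pheromone carriers secreted by the liver of male mice, gave one outlier. Of 19 past the filter 18 were lower, with folds between that of Mup13, 6.5 (3.88 to 11.8), and that of Mup21, 13.6 (2.31 to 550.0), among those with counts in NASH. Mup20, also known as darcin, had 288 counts in NASH, 777 in ob, 1861 in wild-type and 1377 in db and was level between NASH and ob at 1.14-fold (0.996 to 1.31). It was the only member that was not called, and the single values are uncertain because these copies are nearly identical. Genes set by growth hormone and sex were lower in 14 of 18 cases, but 14 of the 18 had passed the filter through ob alone, and the median of -2.0 became -0.71 over those with 10 or more counts in both libraries. Cyp2a4, a steroid hydroxylase, had 1 count in NASH, 269 in ob, 2 in wild-type and 163 in db, and Cyp2d9 was 25.7-fold lower (10.9 to 79.7). Igfbp2, a binding protein of insulin-like growth factors, went the other way. It had 24 counts in NASH, 8 in ob, 92 in wild-type and 91 in db and was 9.26-fold higher in NASH than in ob (4.03 to 23.8), with ob the lowest of the 4. The Y-linked genes Ddx3y, Uty and Eif2s3y were counted in both libraries and Xist in neither.

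Fatty acid synthesis gave the largest difference in summed level among the metabolic lists, at 232 CPM in NASH, 10504 CPM in ob, 1541 CPM in wild-type and 3864 CPM in db, or 45.3-fold lower in NASH than in ob (37.7 to 55.1). Scd1 alone held 81.6% of the list's counts in ob and 11.5% of those in NASH, so the sum follows this gene. Scd1, the desaturase that makes monounsaturated fatty acids, had 13 counts in NASH, 12905 in ob, 411 in wild-type and 2530 in db, and was 322-fold lower in NASH than in ob (188 to 604). Scd2 had 3 counts against 593 (64.0-fold lower, 21.8 to 311), and Scd3 had 0 against 747, at least 80.7-fold lower. The 4 Scd copies can share reads. The ob library was the highest of the 4 and the NASH library the lowest for Scd1, so both ends made the difference. Of 23 synthesis genes past the filter 20 were lower and 1 higher, with a median of -2.53, and 21 had passed through ob alone. Mlxipl, which encodes ChREBP, had 3 counts in NASH, 349 in ob, 1 in wild-type and 6 in db, and was 37.7-fold lower in NASH (12.8 to 184). Srebf1, which encodes SREBP1, had 5, 276, 4 and 137 counts in the same order and was 17.9-fold lower (7.57 to 55.5). For Mlxipl the ob library alone was high, whereas for Srebf1 the db library was high as well. Elovl5, an elongase, was 24.9-fold lower (12.6 to 58.0). Pklr, liver pyruvate kinase, and Acacb, an acetyl-CoA carboxylase, had 0 counts against 67 and 76, while Acly, which makes cytosolic acetyl-CoA, was 4.28-fold lower (2.18 to 9.60). Nr1h3, the oxysterol receptor LXR alpha, was the 1 higher member, with 17 counts in NASH and 16 in ob (3.28-fold, 1.56 to 6.94).

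Promoters of Mlxipl and Scd3 are given for the same reason as those above, each with its 250 bases before the start site and on the plus strand, at chr5:135106641-135106890 and chr19:44203038-44203287.
Mlxipl: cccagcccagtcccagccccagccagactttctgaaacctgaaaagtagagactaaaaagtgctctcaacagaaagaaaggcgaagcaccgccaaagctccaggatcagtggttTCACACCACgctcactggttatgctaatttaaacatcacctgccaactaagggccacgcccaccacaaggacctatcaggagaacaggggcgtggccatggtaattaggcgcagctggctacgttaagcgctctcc
Scd3: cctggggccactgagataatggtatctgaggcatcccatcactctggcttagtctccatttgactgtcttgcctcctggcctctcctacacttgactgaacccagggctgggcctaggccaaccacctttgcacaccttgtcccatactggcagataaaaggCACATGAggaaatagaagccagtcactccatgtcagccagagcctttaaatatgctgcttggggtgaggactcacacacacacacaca
This Mlxipl window holds a sterol response element 136 bases before the start site, letters that 1.05% of promoters hold. The other Mlxipl start site in the table has a CCAAT box and 2 GC boxes. The Scd3 window holds an M-box on the minus strand, 88 bases before the start site, which 3.25% of promoters hold. By gene, the sterol response element stood before 32 of 1754 genes called lower (1.82%), 10 of 500 called higher (2.0%) and 62 of 3815 tested (1.63%), so its share was near that of all tested genes in either direction.

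Lipid droplet and uptake genes were lower in 11 of 17 cases, against 47.2% of all features, and 11 of the 17 had passed through ob alone. The 2 higher ones were lipases. Plin2, the droplet coat protein that follows stored fat, had 35 counts in NASH, 55 in ob, 8 in wild-type and 27 in db. Its level was thus near 2-fold higher in NASH, with a log2 fold change of 0.96, just under the call. Plin4, another coat protein, had 0 counts in NASH, 67 in ob, 0 in wild-type and 1 in db, and G0s2, which inhibits the main triglyceride lipase, had 0 against 50. Slc27a2 and Slc27a5, fatty acid transporters of hepatocytes, were 17.8-fold (10.4 to 33.7) and 15.7-fold lower (10.1 to 25.8), while Cd36, the transporter that macrophages share, was 1.44-fold lower (1.12 to 1.87). Lipe, the hormone-sensitive lipase, had 7 counts against 10, and its interval included equality (2.16-fold, 0.698 to 6.29). Fatty acid oxidation gave 0 higher and 10 lower of 22, near the background of 47.2%. Its lower members included Cyp4a14 (18 counts against 1419, 25.5-fold, 16.1 to 43.2) and Cyp4a10 (28.3-fold, 10.9 to 104), omega-hydroxylases under PPAR alpha. The core enzymes of mitochondrial beta-oxidation, such as Hadha with 12 counts against 40 and Acaa2 with 8 against 27, were not called. The median of -0.64 became 0.35 under protein-coding totals, and that of 4 ketogenesis genes, -0.66, became 0.32.

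Cholesterol genes were lower in 12 of 16 cases, against 47.2% of all features, and the interval excluded equality for 9. Of the 16, 12 had passed through ob alone, and the median of -1.72 became -0.78 over those with 10 or more counts in both libraries. Sc5d, a sterol desaturase late in synthesis, had 3 counts against 193 and was 20.8-fold lower (7.03 to 102). Hmgcs1 and Fdft1, early enzymes, had 13 against 30 and 12 against 20 counts and were not called. Bile acid genes were lower in 16 of 19 cases, 12 of the 19 having passed through ob alone, with a median of -3.05 that was -3.01 over those with 10 or more counts in both libraries. Abcb11, the export pump of the canaliculus, was 21.4-fold lower (9.10 to 66.5), Abcc2, the conjugate pump beside it, 24.1-fold (13.4 to 48.4), Slc10a1, the uptake carrier, 12.4-fold (5.21 to 38.5) and Cyp8b1, which makes cholic acid, 14.9-fold lower (7.17 to 37.5). Cyp7a1, the rate-limiting enzyme of synthesis, had 2 counts against 67. Glucose genes were lower in 17 of 19 cases, of which 13 had passed through ob alone, and the median of -2.81 became -1.57 with counts under 3 set to the floor and -1.17 over those with 10 or more counts in both libraries. Slc37a4, which moves glucose-6-phosphate into the endoplasmic reticulum, had 1 count against 179, and Pck1, a step of gluconeogenesis, was 4.89-fold lower (2.66 to 9.98). Ldha, lactate dehydrogenase, was level at 1.18-fold (0.770 to 1.77).

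Amino acid and urea cycle genes were lower in 19 of 24 cases, against 47.2% of all features, but 17 of the 24 had passed through ob alone. The median of -2.15 became -1.52 over those with 10 or more counts in both libraries. Cps1, the mitochondrial entry enzyme of the urea cycle, had 23 counts against 702 and was 9.89-fold lower (6.54 to 15.7), and Ass1, a cytosolic step of the cycle, was 2.70-fold lower (1.84 to 4.09). Ftcd, a histidine-degrading enzyme, had 1 count in NASH, 225 in ob, 5 in wild-type and 16 in db. Glul, glutamine synthetase, was the 1 higher member, with 70 counts in NASH, 58 in ob, 31 in wild-type and 85 in db (3.73-fold, 2.59 to 5.37). Cytochrome P450 genes of families 1 to 3, the drug- and steroid-oxidising enzymes of the endoplasmic reticulum, were lower in 32 of 32 cases, of which 21 had passed through ob alone. Their median was -3.15, and it was also -3.15 over those with 10 or more counts in both libraries. Cyp3a11 had 207 counts against 3473 and was 5.44-fold lower (4.72 to 6.28), Cyp2e1 was 7.98-fold lower (6.11 to 10.6) and Cyp2c29 52.5-fold lower (25.4 to 131). Cyp1a2 had the smallest difference, at 2.50-fold (1.67 to 3.88). Conjugating enzymes were lower in 21 of 29 cases and higher in 2, and 17 of the 29 had passed through ob alone. Mgst1, a membrane-bound glutathione transferase, had 24 counts against 1929 and was 26.0-fold lower (17.4 to 40.7), and Ugt1a9, a glucuronosyltransferase that shares exons with its neighbours, was 45.7-fold lower (19.5 to 141). Gstm3 and Gstp1, soluble glutathione transferases, were higher at 3.54-fold (2.05 to 6.17) and 3.80-fold (1.71 to 8.59), and Gstm1 was level.

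**Figure D3:**
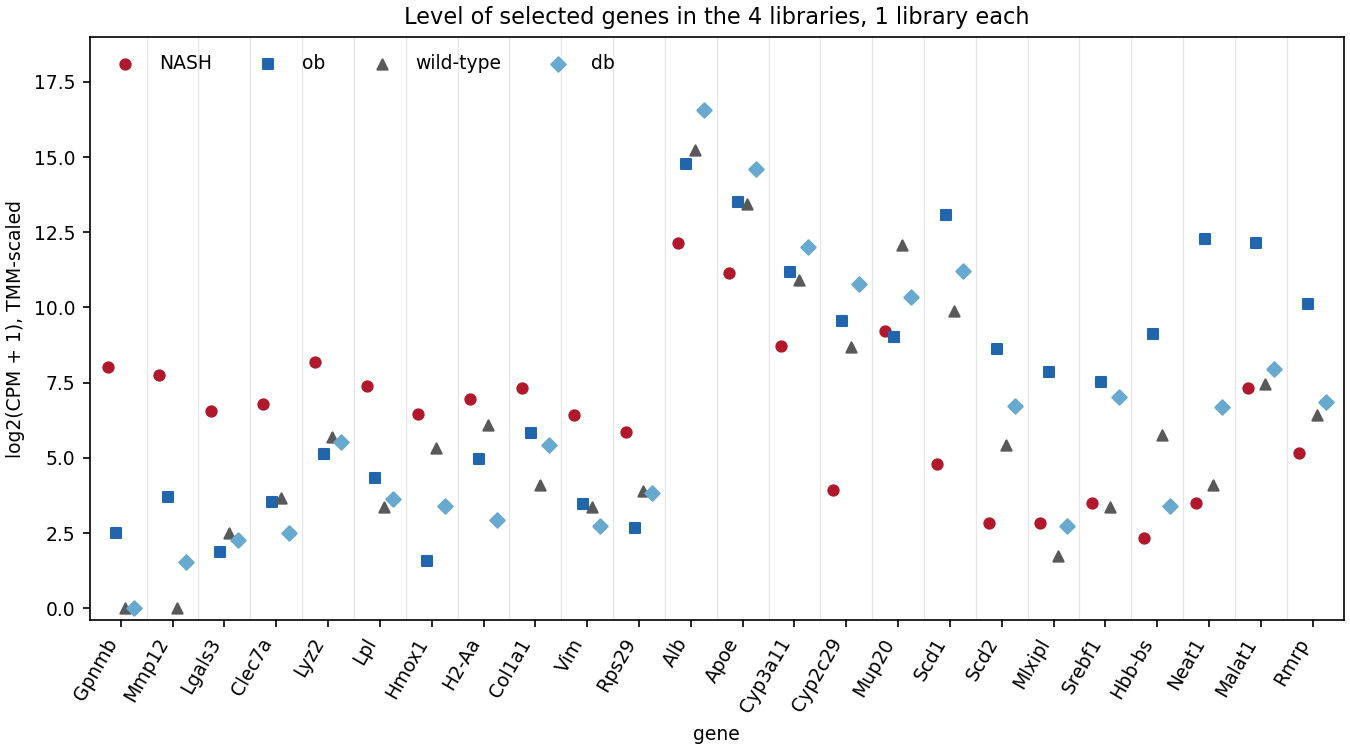
Level of 24 selected genes in each library, as log2(CPM + 1) on the vertical axis, with NASH as red circles, ob as blue squares, wild-type as grey triangles and db as light blue diamonds, 1 library each. NASH alone was high for Gpnmb, Mmp12, Lgals3 and Lyz2, ob alone was high for Mlxipl, Hbb-bs, Neat1, Malat1 and Rmrp, and NASH was the lowest for Alb, Apoe, Cyp3a11, Cyp2c29 and Scd1.

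Oxidative defence was mixed, with 7 members higher and 3 lower of 19 and a median of 0.59 that became -0.08 under plain library totals. Beside Hmox1, the higher members included Prdx1, a cytosolic peroxidase (102 counts against 59, 5.34-fold, 3.84 to 7.48), and Srxn1, which repairs it (12 against 4). The lower ones were Gclc, the rate-limiting enzyme of glutathione synthesis (9 against 123, 4.43-fold, 2.26 to 9.91), Prdx6 (1 against 23) and Prdx4, the peroxidase of the endoplasmic reticulum (0 against 26). Ferritin, the iron store, was higher in both chains. Fth1 had 242 counts in NASH, 148 in ob, 83 in wild-type and 345 in db and was 5.05-fold higher (4.10 to 6.24), and Ftl1 was 4.78-fold higher (4.14 to 5.53). Slc40a1, the iron exporter, was 2.43-fold higher (1.83 to 3.22). The hepatocyte side of iron handling was lower, with Tfr2, the iron-sensing transferrin receptor, at 8 counts against 334 (13.5-fold, 6.78 to 31.6) and Hamp, hepcidin, at 1 against 27. Genes of the endoplasmic reticulum and of integrated stress, listed together, were lower in 14 of 17 cases and higher in 0. The interval excluded equality for 9 of the 14, and 8 of the 17 had passed through ob alone. P4hb, a disulfide isomerase, was 7.73-fold lower (5.97 to 10.2) and Hspa5, the main chaperone, 3.76-fold lower (2.81 to 5.15). The stress markers Ddit3, Trib3 and Chac1 had 0 or 1 counts in either library. Others below the filter were divided. Atf3 had 6 counts in NASH and 0 in ob, Psat1 3 and 0, Sesn2 4 and 4, Asns 0 and 6, and Gdf15 0 and 8.

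The 9 nuclear features that resemble mtDNA genes held 75.5% of all NASH counts (exact Clopper-Pearson interval 75.4 to 75.6) against 28.7% of ob counts (28.6 to 28.8), with 53.2% in wild-type and 26.3% in db. All 9 were called higher. Gm13340, a pseudogene on chromosome 2 whose sequence is 97.6% identical to mt-Co1, had 204293 counts in NASH and 147019 in ob and was 4.29-fold higher (4.26 to 4.32). Gm20594, which resembles the mitochondrial ribosomal RNA gene mt-Rnr2, came next in counts, with 123804 in NASH and 78265 in ob. The libraries were depleted of ribosomal RNA, and the part of that depletion in these counts was not tested. Gm13341, which resembles mt-Co2, was 4.09-fold higher (4.03 to 4.15) and Gm13339, which resembles mt-Nd2, 2.97-fold higher (2.92 to 3.03). Since the table used here had 0 features on the mitochondrial chromosome, reads from mtDNA transcripts and from these copies cannot be told apart. The part of this share in the differences of the lists above was not tested. With these features left out, the all-feature median was -0.43 in place of -0.83 under TMM factors and -0.12 in place of -1.51 under plain totals.

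Nuclear genes for mitochondrial proteins differed from group to group. Summed over 43 listed genes, complexes II to V were 1.62-fold higher in NASH (1.42 to 1.85). They gave 6 higher and 0 lower of 27 past the filter, against 13.4% and 47.2% of all features. Their median was 0.41, or 1.24 above that of all features, and became -0.28 under plain library totals. Among the higher were Cox5a and Cox8a, subunits of cytochrome oxidase, with 20 against 22 and 11 against 6 counts. Complex I gave 1 higher and 1 lower of 15. Its median of -0.49, or 0.33 above that of all features, became 0.54 under protein-coding totals. Atp5a1 and Atp5b, the catalytic subunits of ATP synthase, were level at 1.24-fold (0.791 to 1.91) and 1.33-fold (0.871 to 2.01). Among the carriers Ucp2, an uncoupling protein abundant in macrophages, had 56 counts in NASH, 20 in ob, 25 in wild-type and 16 in db and was 8.64-fold higher (5.11 to 15.2). Slc25a15, the ornithine carrier of the urea cycle, had 0 counts against 39. The carrier median of -0.92 and the maintenance median of -0.94 both became positive under protein-coding totals, at 0.09 and 0.08. Genes for mitochondrial ribosomal proteins summed to 101 counts in NASH and 282 in ob over 76 listed genes, of which 3 passed the filter.

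Cytosolic ribosomal protein genes were higher with few exceptions. Of 76 past the filter 71 were higher and 0 lower, against 13.4% of all features called higher. Of the 76, 7 had passed through NASH alone and 2 through ob alone. The median was 1.93, or 2.76 above that of all features. Rps29, a small-subunit protein, had 28 counts in NASH, 8 in ob, 6 in wild-type and 14 in db and was 10.8-fold higher (4.8 to 27.4). Rpl4 was 5.34-fold (3.51 to 8.23) and Rplp0 3.36-fold higher (2.31 to 4.90). The summed level was 4369 CPM in NASH and 1122 CPM in ob, with 3198 CPM in wild-type and 1775 CPM in db. On this scaling wild-type lay nearer to NASH than to ob. The placement depended on the scaling. Of the counts outside features resembling mtDNA genes, the tested genes held 1.62% in NASH, 0.46% in wild-type, 0.23% in ob and 0.25% in db. There wild-type lay nearer to ob. Elongation factors followed, with Eef1a1 3.81-fold higher (3.27 to 4.44) and Eef2 3.02-fold higher (2.39 to 3.83). Eif4a2, an RNA helicase of initiation, was lower, with 2 counts against 80. Transcripts were shorter among genes called higher, while those of genes called lower were near all tested in length. The longest annotated transcript had a median of 3038 bases among 647 protein-coding genes called higher, 4002 among 2210 called lower and 3952 among 4772 tested, and the part of length was not tested.

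**Figure D4:**
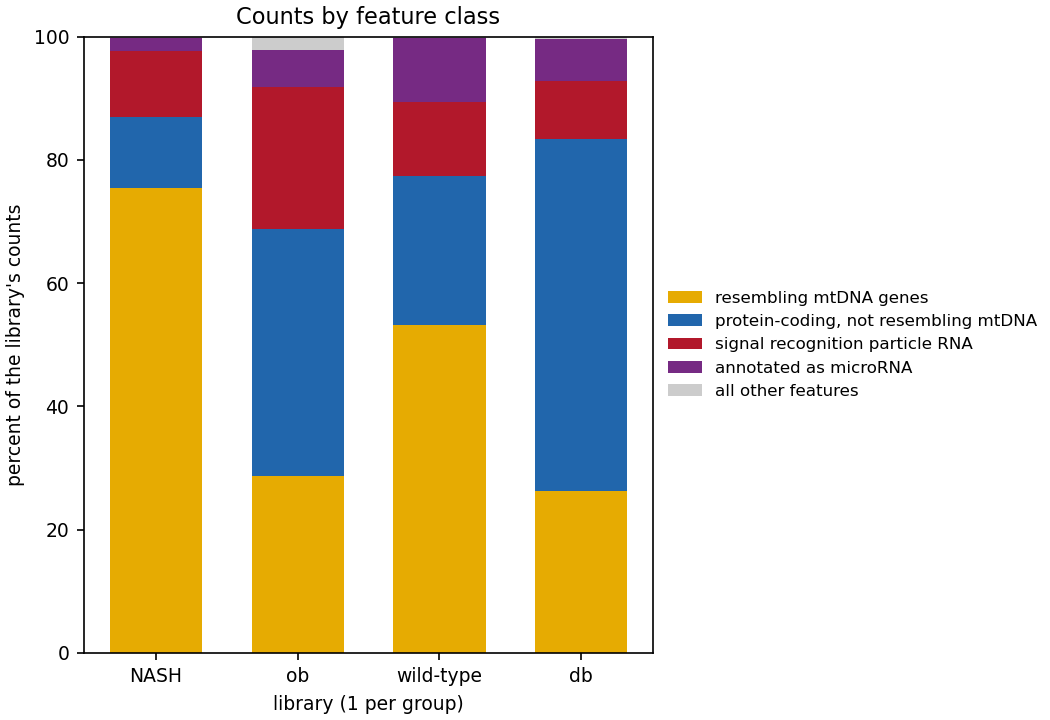
Percent of each library's counts (vertical axis, 0 to 100) that fell on 4 feature classes and on all other features, for the NASH, ob, wild-type and db libraries, 1 bar each. Features resembling mtDNA genes filled 75.5% of the NASH bar and 28.7% of the ob bar, and protein-coding features outside them 11.5% and 40.1%.

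Neat1 and Malat1, long non-coding RNAs of the nucleus, were far higher in the ob library than in the other 3. Neat1, the scaffold of paraspeckles, had 5 counts in NASH, 7450 in ob, 7 in wild-type and 109 in db, and was 483-fold lower in NASH than in ob (207 to 1487). Malat1, a nuclear speckle RNA, had 77, 6797, 75 and 260 counts in the same order and was 28.6-fold lower (22.8 to 36.3). NASH and wild-type were thus alike in counts for both RNAs and ob stood apart. The 26 small nuclear RNA features were all called lower and all had passed through ob alone, so the count of calls follows from the filter and is a description. With counts under 3 set to the floor their median of -2.50 became -0.62. They held 34 counts in NASH, 757 in ob, 33 in wild-type and 55 in db. Of 26 small nucleolar RNA features, 22 of which had passed through ob alone, 25 were lower, with 108 counts in NASH against 1643 in ob. Copies of these genes share reads. Red cell genes were likewise highest in ob, with wild-type second. The 9 listed in the table summed to 11 counts in NASH, 2738 in ob, 76 in wild-type and 44 in db, and Hba-a1, an alpha globin, was 60.8-fold lower (23.7 to 224). Nuclear RNA and red cell RNA were thus highest in the ob library, and their part in the calls given above was not tested.

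The 2 ribozyme RNAs differed. Rmrp, the RNA of RNase MRP, which processes ribosomal RNA precursors in the nucleolus and has been described in mitochondria, had 17 counts in NASH, 1653 in ob, 37 in wild-type and 122 in db and was 31.5-fold lower in NASH (19.6 to 54.2). Rpph1, the RNA of RNase P, which trims transfer RNA precursors, had 85, 133, 85 and 196 counts and was 1.97-fold higher (1.48 to 2.61), just under the call. The 2 RNAs share a fold and most of their protein partners, yet lay on opposite sides. Their GENCODE M21 sequences are shown because they carry this contrast, Rmrp whole over its 271 bases (GRCm38, minus strand of chr4:43492788-43493058) and Rpph1 over its first 150 of 319 bases (minus strand of chr14:50807449-50807767).
Rmrp: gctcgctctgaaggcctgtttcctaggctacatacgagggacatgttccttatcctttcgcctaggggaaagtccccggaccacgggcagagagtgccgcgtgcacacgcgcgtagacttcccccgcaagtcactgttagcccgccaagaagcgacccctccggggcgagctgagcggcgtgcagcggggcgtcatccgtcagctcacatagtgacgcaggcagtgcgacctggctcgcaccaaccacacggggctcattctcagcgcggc
Rpph1: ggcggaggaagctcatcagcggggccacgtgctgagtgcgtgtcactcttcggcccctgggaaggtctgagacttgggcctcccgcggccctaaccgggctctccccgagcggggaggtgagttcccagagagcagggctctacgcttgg
Other RNAs of polymerase III were compared beside them. Rn7sk, which restrains transcription elongation, was 2.24-fold lower (1.66 to 3.06), and the 2 copies of signal recognition particle RNA with the most counts, which cannot be told apart by their reads, were each 1.34-fold lower (1.32 to 1.36), a direction that turned under protein-coding totals, where the log2 fold change of 1 of them was 0.67 in place of -0.42.

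Features annotated as microRNA genes, 5 of them past the filter, held 2.10% of counts in NASH, 5.91% in ob, 10.5% in wild-type and 6.91% in db. The class is that of the deposited annotation, and whether these reads came from microRNA or from another RNA was not tested. Gm23935, of 57 bases, had 9036 counts in NASH and 47654 in ob and was 1.71-fold lower (1.67 to 1.75). Gm24245 and Gm24270 have the identical sequence and were 2.33-fold (2.19 to 2.49) and 1.84-fold lower (1.32 to 2.62). Gm25911, of 56 bases, differs from them by 1 substitution and 1 missing base. It had 644 counts in NASH, 1296 in ob, 2247 in wild-type and 1461 in db and was 1.53-fold higher (1.39 to 1.69), so copies of nearly the same sequence did not move together. The sequences are given from GENCODE M21 on GRCm38, for Gm23935 on the plus strand of chr16:11144125-11144181 and for Gm25911 on the minus strand of chr1:167340369-167340424, with capitals at the bases that differ.
Gm23935: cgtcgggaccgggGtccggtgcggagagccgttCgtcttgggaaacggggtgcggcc
Gm25911: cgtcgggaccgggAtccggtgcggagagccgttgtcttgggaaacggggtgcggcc
The sources used here do not say how reads with several matches were divided among copies.

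Few genes of the leptin pathway were counted. Jak2, the kinase of the leptin receptor, had 19 counts in NASH and 6 in ob and was 9.78-fold higher (3.75 to 29.9), and Ptpn1, a phosphatase that damps it, was 3.47-fold higher (1.67 to 7.28). Stat3, its transcription factor, had 10 counts against 20 and was not called, while Lepr, the receptor, had 0 and 4 counts and Leprot 3 and 5. Jak2 and Ptpn1 also serve many other receptors. Insulin receptor RNA was lower, with 3 counts of Insr in NASH against 93 in ob (10.04-fold, 3.33 to 49.6). Clock genes gave 0 higher and 3 lower of 6, near the 47.2% of all features called lower, each passing through ob alone. The interval excluded equality for 1 of the 3. Of 20 cell cycle genes only Pcna and Ccnd1 passed the filter, with 10 against 3 and 12 against 4 counts, and both were called higher. Both had passed through NASH alone, so these calls follow from the filter and are a description.

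**Figure D5:**
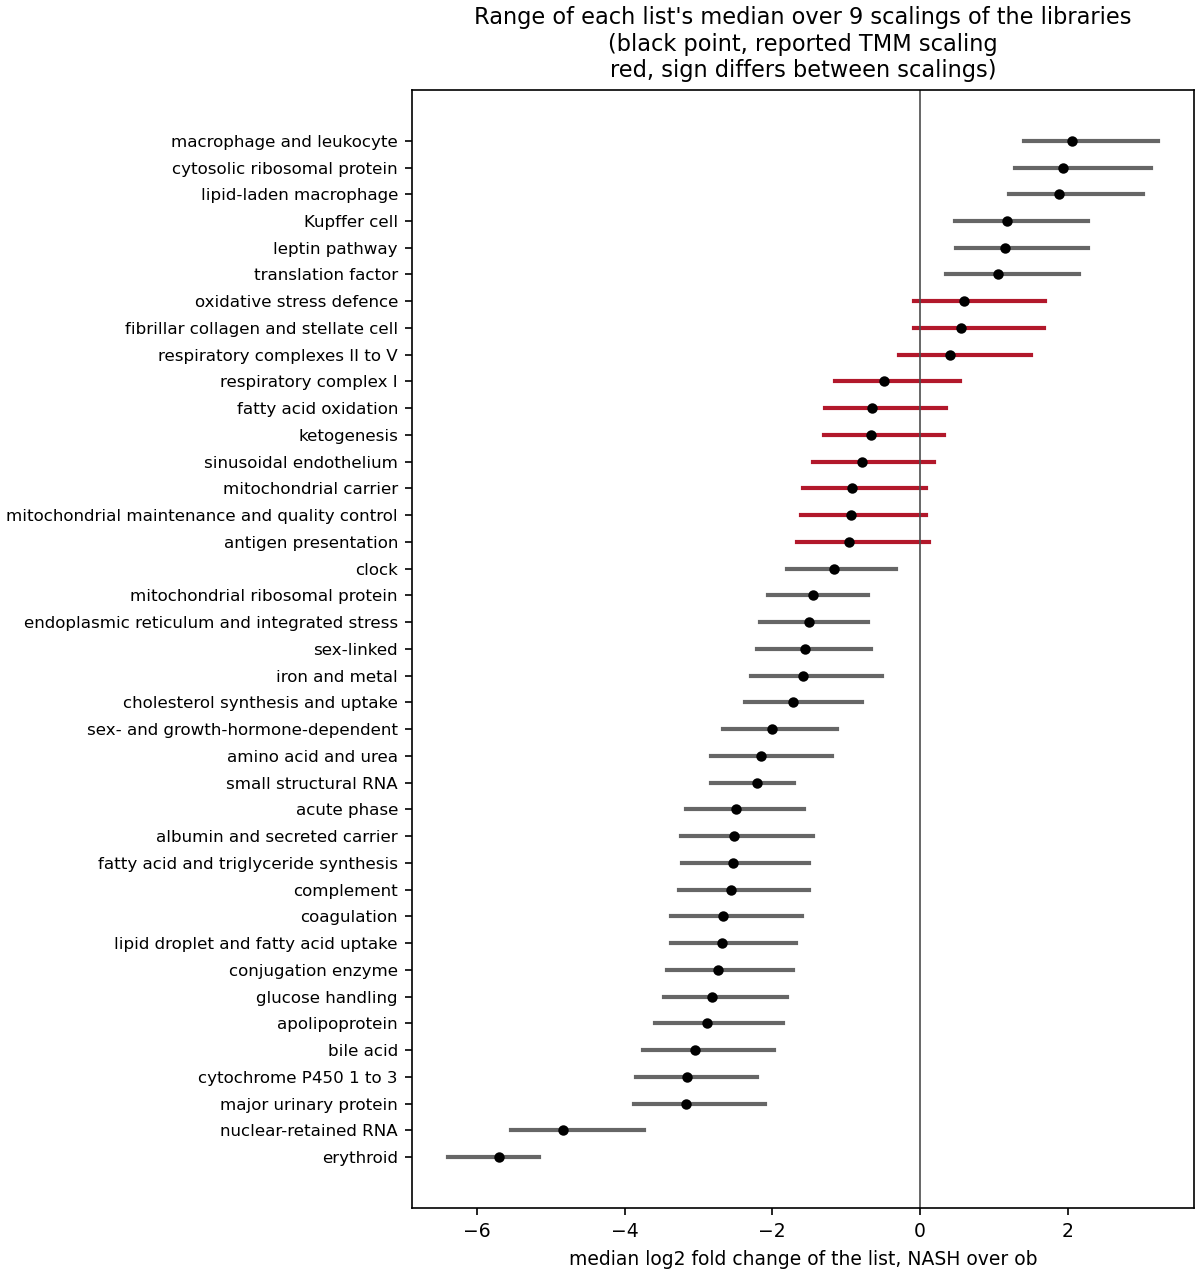
Range of each list's median log2 fold change of NASH over ob across 9 scalings of the libraries (horizontal bars), with the reported TMM value as a black point and lists whose sign differs between scalings in red. The macrophage and cytosolic ribosomal protein lists stayed above 0 under all 9. Most hepatocyte lists and the nuclear-retained RNA, erythroid and mitochondrial ribosomal protein lists stayed below 0. Another 10 lists near 0 changed sign, fatty acid oxidation and ketogenesis among them.

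Among the 15 largest decreases were several genes outside the lists. Retsat, which saturates retinol, had 2 counts in NASH, 476 in ob, 81 in wild-type and 1411 in db and was 77.1-fold lower in NASH than in ob (21.2 to 638). Pcyt2, which prepares ethanolamine for phospholipid synthesis, had 0 counts against 217, which is at least 23.4-fold lower against the floor of 3 counts. Ptprd, a receptor phosphatase, had 0 counts in NASH, 133 in ob, 27 in wild-type and 137 in db, at least 14.4-fold lower, so the db library was close to ob in counts and NASH stood apart. Pcsk6, a proprotein convertase, had 0 counts in NASH, 120 in ob and 229 in db, and Prlr, the prolactin receptor, 0 in NASH, 93 in ob and 83 in db. Nlrp6, an innate immune sensor, had 0 counts against 94, with 2 in wild-type and 10 in db, and here ob stood alone. Among the largest increases outside the lists, Sdcbp, a scaffold of exosome formation, had 53 counts in NASH, 21 in ob, 12 in wild-type and 15 in db and was 7.79-fold higher (4.62 to 13.6). Gm10800, a predicted gene, was 9.0-fold higher (6.42 to 12.8), with 2 counts in wild-type and 17 in db.

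The scaling set how much of the table stood on each side. Relative to the reported -0.83, the all-feature median moved by -0.68 under plain library totals and by 0.96 under protein-coding totals, from which the share of higher among all calls followed. That share was 31.3% under median-of-ratios size factors, 26.3% under upper-quartile factors, 37.6% with TMM factors of these 2 libraries alone, and 45.2% and 34.4% with totals and TMM factors that leave out features resembling mtDNA genes. Macrophage and leukocyte genes kept a median between 1.40 and 3.22 over the 9 scalings, ribosomal protein genes between 1.29 and 3.12, cytochrome P450 genes between -3.85 and -2.21, and fatty acid synthesis genes between -3.23 and -1.51.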

How the data were processed

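Total RNA of liver mitochondria was extracted with the miRNeasy Mini kit, depleted of ribosomal RNA and made into strand-specific libraries with the NEBNext Ultra Directional kit, per the labels' protocols. The submitters' processing notes name bcl2fastq 2.20, Trimmomatic 0.32, TopHat2 2.1.1, Bowtie2 2.3.2 and the build mm10, but the counting program, annotation and strand setting were not given in the sources used here, per the labels. The deposited table gives, per the file headers, a raw column and a normalized column for each library. The authors' raw values are expected counts that are not all whole, and they were rounded to whole numbers. The authors' normalized values, labelled TMM, are log2 values by their range and served in an alternative only.

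TMM factors over the 4 libraries came from edgeR 4.0.16 (R 4.3.3). Features with 10 or more counts in either the NASH or the ob library were compared by the difference of log2(CPM + 1), computed from the deposited counts, and called at 2-fold. Fold changes printed are ratios of CPM with no pseudocount, with exact binomial intervals. With 1 library a group, no dispersion can be estimated, so no count model was fitted and no p-value is given. IDs were named from GENCODE M21 (36049 of 37819, 95.3%), and BLAST+ 2.17.0 found the features resembling mtDNA genes (85% identity or more over at least 50% of their length). Python 3.11.15, numpy 2.4.6, pandas 2.3.3, scipy 1.17.1, Biopython 1.88 and matplotlib 3.10.9 did the rest, and the comparison was tested on simulated data. The genes named are the 15 largest differences per direction among features with 50 or more counts in the higher library, the 8 largest non-coding ones per direction, up to 3 members per direction of each list, its member with most counts, and a few fixed names. Other list members are named after their values were seen, to show how lists divide. The members and the 46 gene lists were chosen with earlier results of these data known. Alternatives covered the scaling, pseudocount, filter, floor and depth. The wild-type and db libraries were used for scaling and as values only.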

Additional observations from a re-analysis of the deposited data

How the results depend on the processing

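The count of features higher in NASH than in ob, 660 as reported, was 359 under plain library totals, 1088 with TMM factors of NASH and ob alone, 1353 with totals and 1030 with TMM factors that leave out features resembling mtDNA genes, 1589 under protein-coding totals, 3192 with no filter, 143 with 30 or more counts in either library and 424 with 10 or more in both. The count of lower features, 2321 as reported, was 1437 under protein-coding totals, 4731 with no filter, 1019 with 30 or more counts, 235 with 10 or more in both, 1363 with counts under 3 set to the floor, 1068 with the ob library thinned and 1354 when the interval had to exclude equality. Fewer or more features tested account by construction for part of the changes under the filters; otherwise the cause was not tested. The median over all features, -0.83 as reported, was -1.51 under plain totals, -1.11 with the submitters' normalized values, -0.65 with upper-quartile factors, -0.48 with median-of-ratios size factors, -0.43 with TMM factors and -0.12 with totals that leave out features resembling mtDNA genes, -0.32 with TMM factors of the pair alone, 0.13 under protein-coding totals, -0.60 with a pseudocount of 5, -0.45 with no filter, -1.69 with 30 or more counts, 0.71 with 10 or more in both, -0.38 with the floor and -0.93 with ob thinned. Of 576 list medians recomputed for 39 lists, 480 moved little and 94 moved further, and the medians of 10 lists whose reported value was within 2-fold changed sign between scalings. Among lists whose reported median was past 2-fold 2 changed sign, both with 10 or more counts in both libraries, iron and metal genes at 1.27 against -1.58 and sex-linked genes at 0.32 against -1.55. Of 2753 recomputed values of 196 single features 2424 moved little, 329 moved further and 0 of those past 2-fold changed sign. The 2424 include values under the alternative filters, which cannot change the fold of a single feature. For features at 0 in NASH the interval has no lower end, so any lower value was also taken as little moved. The 2424 therefore overstate how steady single features were. No replicate could be left out. No paired analysis was possible because each group has 1 library. The NASH library, with 129834 counts outside features resembling mtDNA genes, sets a limit by depth, since 547 features at 0 there can only be given as lower bounds, and genes under the floor of 6.15 CPM were not detectable at this depth.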
